A study of Mus musculus with 4 samples.

Results

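Cells of the thoracic aorta of wild-type mice given a high fat diet and an angiotensin II (AngII) infusion were compared with cells of wild-type mice on normal diet with saline. All cells of the 2 wild-type libraries entered the comparison, 17756 of the 38316 cells in the 4 libraries of the series. The treated library (WT AngII) held 8495 cells from mice fed the high fat diet for 5 weeks and infused with AngII for 7 days. The control library (WT saline) held 9261 cells. Each library pooled thoracic aortas of 3 mice, stripped of periaortic fat and digested enzymatically, per the labels' protocols. Viable cells were then sorted and captured with the 10x Genomics 3′ v3 kit. The other two libraries came from mice labelled Sting KO, given the same treatments. The sources used here do not give strain, age or sex of the mice. Diet and infusion were changed together, so their parts in any difference cannot be told apart.

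Each treatment was measured in 1 library, so no difference below has a replicate check and no test was made. Intervals are exact 95% intervals and cover counting error only, not the spread between mice or between library preparations. Transcripts were counted as unique molecular identifiers (UMIs), summed over cells, and given as UMIs per 1000000 UMIs of the same cells (CPM). The KO pair shares no library with the wild-type pair, and its ratio is given beside some genes as a description, since its genotype label differs.

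The hormone AngII acts on smooth muscle through the AT1 receptor to narrow arteries, and also acts on fibroblasts of the outer wall. Sustained infusion in mice with a high fat diet is a widely used way to injure the aorta. Smooth muscle cells (SMCs) make up the contractile middle layer, fibroblasts make collagen in the outer layer, and resident macrophages live mainly among the fibroblasts and are joined by monocytes from blood after injury. Cells that secrete much collagen depend on chaperones and modifying enzymes of the endoplasmic reticulum (ER), which fold and link the new chains.

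Cells were assigned by UMIs of marker genes. The SMC gate took cells with 3 or more UMIs of Myh11, the smooth muscle myosin heavy chain. The fibroblast gate took cells with 10 or more UMIs of Dcn and Lum together, small proteoglycans of the matrix, and at most 1 of Myh11. The phagocyte gate took cells with 10 or more UMIs of Lyz2, C1qa and C1qb together, lysozyme and complement subunits, and under 10 of Dcn and Lum together. A cell could meet both the SMC and the phagocyte gate, as 85 cells of WT AngII and 34 of WT saline did. The levels of these 6 genes follow from the gates and are not results. Markers the gates did not use matched the names: the summed level of 10 smooth muscle markers was 39126 CPM in the SMC gate of WT AngII and 45948 CPM in that of WT saline, against 1534 and 1957 CPM in the fibroblast gates. The 10 fibroblast markers summed to 40810 and 27113 CPM in the fibroblast gates, and 10 phagocyte markers to 11838 and 15154 CPM in the phagocyte gates. The phagocyte gate also held 6007 CPM of smooth muscle markers in WT AngII and 7142 CPM in WT saline. Of the cells just inside the SMC gate, with 3 Myh11 UMIs, there were 135 in WT AngII and 182 in WT saline, and just outside it, with 2, there were 131 and 162.

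The libraries differed in depth. WT AngII held 90581097 UMIs with a median of 9938 per cell, and WT saline 60064038 UMIs with a median of 5888. The shallowest cell of WT AngII had 3583 UMIs and that of WT saline 1753, and 755 cells of WT saline lay under 3000 UMIs. Between 92 and 148 cell barcodes were shared by any pair of the 4 libraries, 103 of them by the wild-type pair. The control library also stood apart from the other 3 in a set of genes that respond to glucocorticoid hormones, which is described with those genes below. The Sting gene (Tmem173) itself was detected in the KO libraries. In the phagocyte gate the AngII libraries had 38.7 (WT) and 29.5 CPM (KO), and the saline libraries 25.6 and 16.7 CPM, the last from 8 UMIs. In the fibroblast gate the saline level was higher in KO (10.9 against 7.05 CPM) and the AngII level lower (12.5 against 15.9 CPM). The kit counts transcript ends, and the sources used here do not say whether the deleted part of the gene lies there. The label is therefore written as given.

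The treated aorta held relatively fewer SMCs and more fibroblasts and phagocytes among its captured cells. The SMC gate took 5906 cells, 69.5% (68.5 to 70.5) of WT AngII, and 7563 cells, 81.7% (80.9 to 82.4) of WT saline. The fibroblast gate took 1698 cells, 19.99% (19.1 to 20.9), against 1021 cells, 11.02% (10.4 to 11.7). The phagocyte gate took 705 cells, 8.30% (7.72 to 8.91), against 285 cells, 3.08% (2.74 to 3.45). No gate was met by 271 cells (3.19%) of WT AngII and 426 (4.60%) of WT saline. When every cell was first reduced at random to 3000 UMIs, leaving out shallower cells, the SMC share was 47.6% against 77.8% and the fibroblast share 18.2% against 7.88%. The phagocyte share was then 7.99% against 3.02%. The gap in SMC share was wider in thinned cells, but the gate still asked for 3 Myh11 UMIs. Myh11 itself had 1237 CPM in the SMC gate of WT AngII and 2069 in that of WT saline. Fewer SMCs and less Myh11 per cell cannot be told apart in the thinned shares. The part of cell release and sorting in these shares was not tested.

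**Figure D1:**
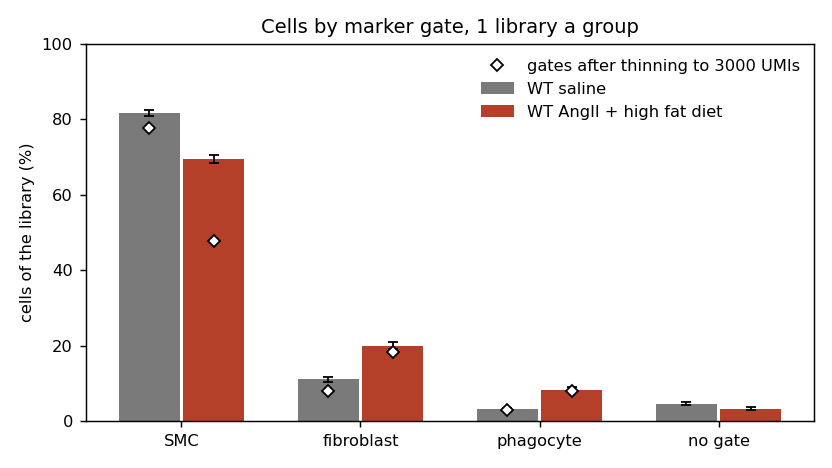
Share of each wild-type library's cells (vertical axis, %) in the 3 marker gates and in no gate, with bars for 1 library each and exact 95% intervals for counting error; diamonds give the share when gates were applied to cells reduced to 3000 UMIs. The fibroblast and phagocyte shares of WT AngII (19.99% and 8.30%) lie above those of WT saline (11.02% and 3.08%), and the SMC share lies below.

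Gene ratios were taken within each gate, as the log2 of CPM in WT AngII over CPM in WT saline. A gene was eligible where its higher CPM amounted to at least 50 UMIs at the smaller of the 2 totals, and where its level in the gate was at least 0.1 of its highest level over the gates, a filter on free RNA from other cells. A gene was counted as higher or lower at 2-fold or more. In the SMC gate 11525 genes were eligible, of which 542 (4.7%) were higher and 598 (5.19%) lower. In the fibroblast gate the counts were 438 (5.79%) higher and 592 (7.82%) lower of 7570, and in the phagocyte gate 192 (4.78%) higher and 190 (4.73%) lower of 4019. These percentages are the background for every list below. The median log2 ratio over eligible genes was −0.13 in the SMC gate, −0.13 in the fibroblast gate and −0.04 in the phagocyte gate. Scaling by median-of-ratios factors moved all ratios up by 0.11, 0.17 and 0.14 in the 3 gates, and turned the split into 652 higher and 467 lower, 606 and 422, and 247 and 130.

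For some called genes a single library stood apart from the other 3. A gene that differed alike in the wild-type and KO pairs falls in neither class below. The counts therefore do not place the difference of every called gene on a side. Of the 598 genes lower in the SMC gate, 105 (17.6%) had a level in WT saline at least 2-fold above each of the other 3 libraries, and 16 (2.68%) had a level in WT AngII at least 2-fold below each of the others. Of the 542 higher genes, WT AngII was at least 2-fold above each of the others for 12 (2.21%), and WT saline at least 2-fold below each of the others for 92 (17.0%). In the fibroblast gate, WT saline stood apart in this way for 131 of the 592 lower genes (22.1%) and 123 of the 438 higher genes (28.1%), and WT AngII for 4 (0.676%) and 18 (4.11%). In the phagocyte gate WT saline stood apart for 26 of the 190 lower genes (13.7%) and 50 of the 192 higher genes (26.0%). WT AngII stood apart there for 3 of the lower (1.58%) and 24 of the higher genes (12.5%). A ratio of 2-fold or more in the same direction was found in the KO pair for 298 (55.0%) of the higher and 267 (44.6%) of the lower genes of the SMC gate, for 238 (54.3%) and 411 (69.4%) in the fibroblast gate, and for 78 (40.6%) and 68 (35.8%) in the phagocyte gate. In the KO pair itself 4.59% of eligible genes were higher and 5.87% lower in the SMC gate, 6.55% and 11.9% in the fibroblast gate, 3.95% and 4.9% in the phagocyte gate, and 11.7% and 8.16% over all cells. Wild-type calls were matched to the KO pair with no minimum count there, while these last shares are over its eligible genes. The shares are therefore not on the same base. The named genes counted below as 2-fold apart in the KO pair also had no minimum count there. In the phagocyte gate 1470 genes were eligible in the KO pair, and KO saline had 83 cells in that gate.

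In smooth muscle cells the gene with the interval farthest above 0 was Spp1 (osteopontin), a secreted phosphoprotein of injured arteries and calcifying tissue, at chr5:104435118-104441050 (GRCm38, plus strand). It had 12850 UMIs (199 CPM) in WT AngII and 96 UMIs (1.81 CPM) in WT saline, a log2 ratio of 6.78 (6.49 to 7.08), and 8.52 in the KO pair. At 3000 UMIs per cell, 11.8% of SMC-gate cells held an Spp1 UMI in WT AngII (23.2% at full depth) and 0.191% in WT saline (0.291%). Spp1 was present in every gate of the treated library, with 43.99% of its UMIs in the SMC gate alone, 22.4% in the fibroblast gate and 25.2% in the phagocyte gate alone. Igfbp2, a binding protein for insulin-like growth factors, at chr1:72824503-72852474 (plus strand), had 597 against 39.3 CPM, a log2 ratio of 3.93 (3.86 to 3.99). It was held by 39.6% of thinned SMC-gate cells in WT AngII and 4.62% in WT saline, and 96.0% of its UMIs in WT AngII came from the SMC gate alone. Its KO ratio was 1.55, and its KO levels of 211 and 71.9 CPM lay between those of the wild-type libraries. The proteoglycan gene Esm1 had 982 UMIs against 9, a log2 ratio of 6.48 (5.55 to 7.61), and 3.33 in the KO pair.

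A few SMC genes rested on very few cells or counts. Lcn2, the iron-trafficking protein lipocalin 2, had 566 UMIs in WT AngII, held by 47 of 5906 cells, and 1 UMI in WT saline, a log2 ratio of 8.86 (6.37 to 14.16). In SMC-gate cells of exactly 1 gate with under 5 UMIs of the fibroblast gate genes and under 5 of the phagocyte gate genes its ratio was 4.94. Mxd3 and Klhdc8a had 104 and 101 UMIs against 1 each, with ratios of 6.41 (3.90 to 11.73) and 6.37 (3.86 to 11.69). Ttc9 had 608 UMIs against 13, a ratio of 5.26. Pbp2 had 134 UMIs against 0 and was at least 36.6-fold higher, taking 3 UMIs as the limit that a count of 0 allows. All 10 of the genes named as higher in the SMC gate were at least 2-fold higher in the KO pair as well.

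Some of the genes lowest in the SMC gate were highest in the control library by a wide margin. Fkbp5, a co-chaperone of the glucocorticoid receptor induced by that hormone, at chr17:28399094-28517527 (minus strand), had 2829 UMIs (53.4 CPM) in WT saline and 238 (3.68 CPM) in WT AngII, a log2 ratio of −3.86 (−4.06 to −3.67). KO saline had 3.72 and KO AngII 5.56 CPM, so WT AngII lay at the level of the KO libraries. Fam107a had 15.4 against 0.603 CPM, a ratio of −4.68, with 1.87 and 0.684 CPM in the KO libraries. Cbs, which makes cystathionine from homocysteine, had 8.06 against 0.649 CPM, a ratio of −3.63, and −1.46 in the KO pair. Omd, a small proteoglycan, had 36.4 against 3.69 CPM, a ratio of −3.30, and −1.62 in the KO pair. Cyp2b10, Slc24a4 and Fmo6 had 150, 146 and 69 UMIs in WT saline against 5, 9 and 3, and the ratio of Fmo6 was −4.81. Otos had 51 UMIs in WT saline and none in WT AngII, but 49 of them were in 1 cell. Of the 10 genes named as lower in the SMC gate, 8 had a ratio of the same sign in the KO pair. Only 5 of the 10 were at least 2-fold lower there.

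Pecam1, an adhesion molecule of endothelial cells, was also lower in the SMC gate, with 4742 UMIs (89.5 CPM) in WT saline and 599 (9.26 CPM) in WT AngII, a log2 ratio of −3.27 (−3.40 to −3.15). It was held by 20.6% of thinned SMC-gate cells in WT saline and 2.54% in WT AngII. The other 7 endothelial markers together had 2.89 and 1.67 CPM in the same cells, and cells with 3 or more of the 8 markers made up 9 of 7563 and 4 of 5906. Over all cells, 88 of 9261 in WT saline (0.9502%, 0.763 to 1.17) and 27 of 8495 in WT AngII (0.318%, 0.210 to 0.462) held 3 or more endothelial markers. Such cells made up under 1% of each library.

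In fibroblasts of the treated aorta the gene with the interval farthest above 0 and UMIs in both libraries was Cthrc1. Cthrc1, a collagen triple helix repeat protein secreted by activated fibroblasts, at chr15:39076932-39087121 (plus strand), had 28780 UMIs (1608 CPM) in WT AngII and 113 (27.5 CPM) in WT saline, a log2 ratio of 5.87 (5.61 to 6.15), and 6.37 in the KO pair. It was held by 69.0% of thinned fibroblast-gate cells in WT AngII (79.9% at full depth) and 6.75% in WT saline (6.27%), against 4.40% of phagocyte-gate cells in WT AngII, whose median depth was 7905 UMIs against 9150 in the fibroblast gate. The fibroblast gate held 87.7% of its UMIs in WT AngII. Ddah1, which degrades methylarginines that block nitric oxide synthase, had 2468 UMIs against 11, a ratio of 5.69 (4.85 to 6.69), and 17.1% of thinned cells held it in WT AngII. Crabp2, which carries retinoic acid to its receptor, had 958 UMIs against 2, a ratio of 6.78 (4.93 to 9.83). Spp1 had 344 against 16.3 CPM, a ratio of 4.40, but 1 cell held 22.2% of its UMIs in WT AngII.

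Saa3, an acute phase apolipoprotein, had 2544 UMIs in the fibroblast gate of WT AngII and none in WT saline, at least 195-fold higher. These UMIs lay in 54 of 1698 cells, and 1 cell held 29.0% of them, so few fibroblasts carried it at these depths. Otor had 393 UMIs against 0, of which 390 were in 1 cell. Cell cycle genes were also among them. Ube2c had 932 UMIs against 2, a log2 ratio of 6.74 (4.89 to 9.79), Top2a 480 against 1, a ratio of 6.79 (4.30 to 12.09), and Ccnb2 428 against 1, a ratio of 6.62 (4.13 to 11.93). Tk1 had 272 UMIs against 0 and was at least 20.8-fold higher. Of the 10 genes named as higher in the fibroblast gate, 9 were at least 2-fold higher in the KO pair.

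Enzymes and secreted proteins were among the genes lowest in fibroblasts of the treated aorta. Inmt, an indolethylamine methyltransferase, at chr6:55170626-55175043 (minus strand), had 408 CPM in WT saline and 10.0 in WT AngII, a log2 ratio of −5.35 (−5.58 to −5.13), and −5.46 in the KO pair. Angptl7, a secreted angiopoietin-like protein, had 1132 against 30.6 CPM, a ratio of −5.21 (−5.34 to −5.08), and 49.8% of thinned fibroblast-gate cells held it in WT saline against 7.24% in WT AngII. Glul, glutamine synthetase, had 1065 against 80.7 CPM, a ratio of −3.72 (−3.81 to −3.64). Galnt15, an enzyme that starts O-linked sugar chains, had 315 against 10.4 CPM, a ratio of −4.91. Gsta3, a glutathione transferase, had 58.3 against 1.45 CPM, and the complement component C7 18.2 against 0.559 CPM. Fetub, a fetuin secreted protein, was also lower, with a ratio of −4.63. Mrgprg, an orphan receptor gene, had 303 UMIs in WT saline, 88 of them in 1 cell, and none in WT AngII, at least 439-fold lower. Gnrhr had 53 UMIs against 0, and none in either KO library. Of these 10 genes, 9 were at least 2-fold lower in the KO pair.

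Spp1 led the genes higher in phagocytes of the treated aorta too. It had 7687 UMIs (1195 CPM) in WT AngII and 7 (4.59 CPM) in WT saline, a log2 ratio of 8.03 (6.98 to 9.34), and 35.7% of thinned phagocyte-gate cells held it in WT AngII. Slc7a11, the cystine transporter, had 434 UMIs against 1, a ratio of 6.69 (4.20 to 11.99). Pdpn, a membrane mucin, had 432 UMIs against 1, a ratio of 6.68 (4.19 to 11.99). Plac8, the arginine-degrading enzyme Arg1 and the chemokine Cxcl3 had 323, 308 and 302 UMIs against 0, at least 25.6-fold, 24.4-fold and 23.9-fold higher. Among the lower genes, the hyaluronan receptor Lyve1, at chr7:110850607-110863239 (minus strand), had 1797 against 213 CPM, a ratio of −3.08 (−3.17 to −2.98). Its KO ratio was −0.84, under 2-fold, with 598 CPM in KO saline and 335 in KO AngII. Lyve1 was held by 91.1% (86.9 to 94.2) of thinned phagocyte-gate cells in WT saline and 27.0% (23.7 to 30.4) in WT AngII, against 1.10% and 0.847% of SMC-gate cells. The eosinophil-attracting chemokine Ccl24 had 932 against 79.3 CPM, a ratio of −3.55 (−3.70 to −3.41). The sulfotransferase Sult1a1 had 259 against 33.0 CPM, a ratio of −2.97. Of the 171 Cytl1 UMIs in WT saline 130 were in 1 cell, and of the 84 Pecam1 UMIs 50 were in 1 cell. In the KO pair all 6 genes named as higher in the phagocyte gate were at least 2-fold higher. Of the 6 named as lower, 5 were at least 2-fold lower there.

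**Figure D2:**
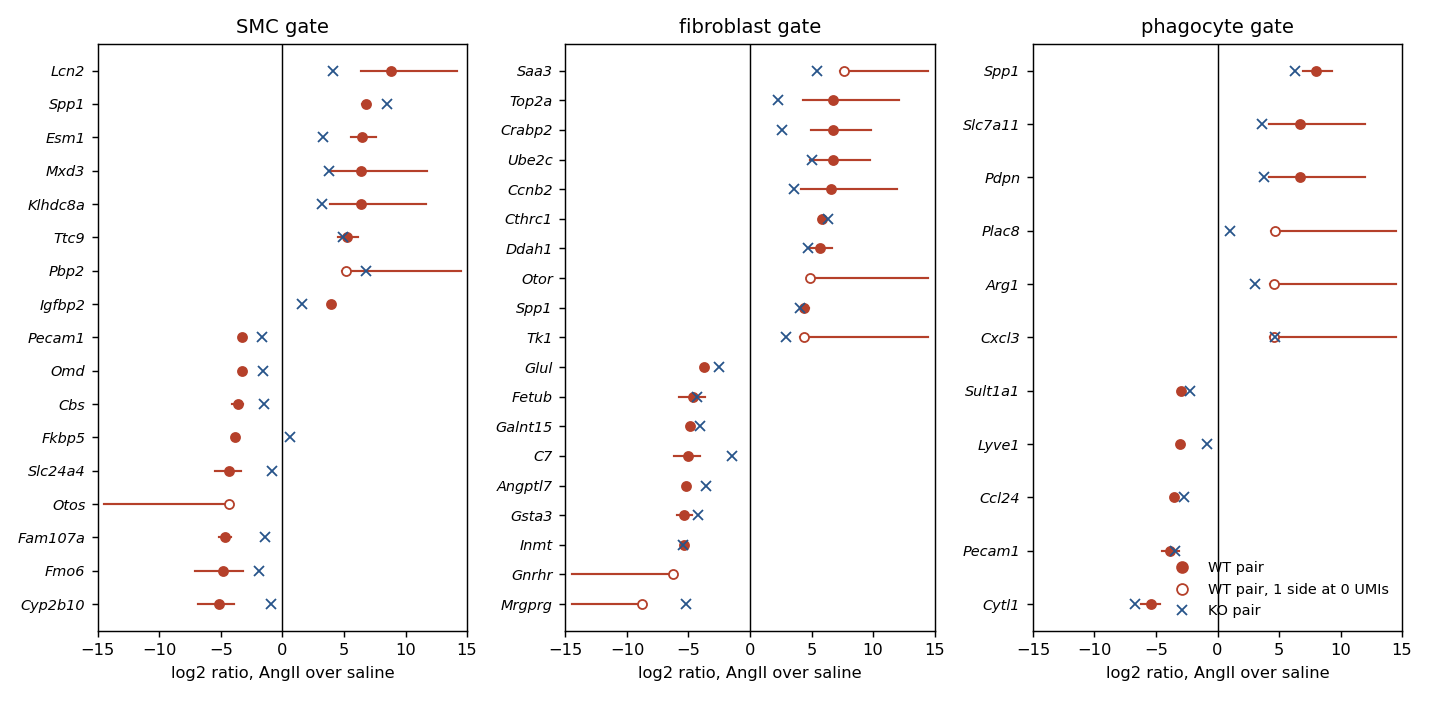
Log2 ratio of CPM, AngII over saline (horizontal axis), for genes named by the fixed rule in each gate, without those not reported here; red circles with lines give the wild-type pair and its 95% counting interval, open circles mark genes with 0 UMIs on 1 side (plotted at 3 UMIs, interval drawn to the edge), and blue crosses give the KO pair. The cross of Spp1 in the SMC gate lies beyond its circle (8.52 against 6.78), while that of Fkbp5 lies at 0.58, on the other side of 0 from its circle at −3.86.

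Genes induced by glucocorticoid hormones, with the metallothioneins that buffer zinc and copper, had the lowest median of the lists in all 3 gates. In the SMC gate 7 of 16 eligible members were lower and 1 higher, with a median log2 ratio of −0.91 against −0.13 for all genes. In the fibroblast gate 11 of 18 were lower and 1 higher (median −1.59), and in the phagocyte gate 6 of 11 were lower and 1 higher (median −1.20). Mt1, at chr8:94179082-94180327 (plus strand), had 5788 CPM in the SMC gate of WT saline and 714 in WT AngII, a ratio of −3.02. In the KO libraries it had 1128 CPM with saline and 1019 with AngII. Mt2 had 1456 against 230 CPM in the wild-type pair and 277 against 310 CPM in the KO pair. The transcription factor Zbtb16 had 97.9 against 21.9 CPM in the wild-type SMC gates and 23.34 with saline and 23.35 with AngII in the KO gates. The control library was thus the one that differed, and the other 3 libraries had like levels of these genes in the SMC gate.

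The same library stood apart in the other gates. Fkbp5 had 66.8 CPM in the fibroblast gate of WT saline, while WT AngII had 17.2, KO saline 27.9 and KO AngII 18.6 CPM. In the phagocyte gate its levels were 68.1, 12.9, 8.34 and 13.8 CPM in the same order. Tsc22d3 (GILZ), a glucocorticoid-induced leucine zipper, had 772 CPM in the fibroblast gate of WT saline and 120 CPM in that of KO saline, while the AngII libraries had 67.4 (WT) and 51.25 CPM (KO). For Tsc22d3 KO saline also lay above both AngII libraries. The summed level of the list in the SMC gate was 8744 CPM in WT saline, while the other libraries had 1895 (WT AngII), 2465 (KO saline) and 2498 CPM (KO AngII). In the KO pair 0 of 16 members were lower in the SMC gate, 5 of 14 in the fibroblast gate and 0 of 7 in the phagocyte gate. The exceptions in the wild-type pair were Lcn2, higher in the SMC and fibroblast gates, and the kinase Sgk1, higher in phagocytes at 171 against 60.9 CPM. Treatment and the state of the 3 control mice cannot be told apart in these genes.

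**Figure D3:**
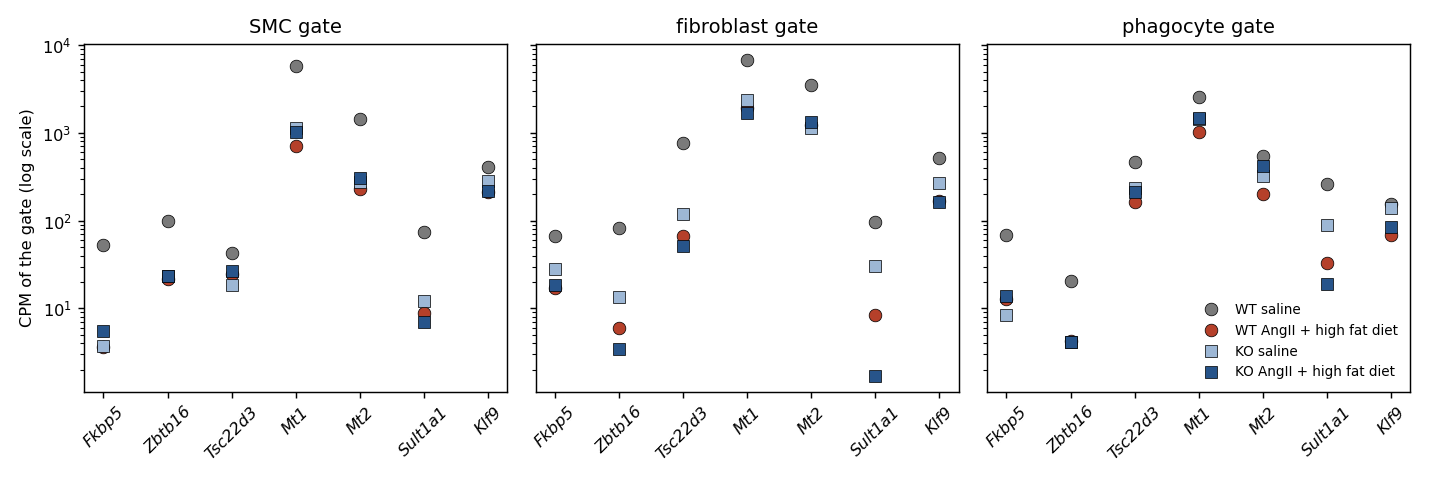
Level in each gate (vertical axis, CPM, log scale) of 7 genes of the glucocorticoid and metallothionein list in the 4 libraries, 1 point a library. WT saline is the highest point for every gene in every gate, for example 53.4 CPM of Fkbp5 in the SMC gate against 3.68 to 5.56 CPM in the other 3.

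Clock genes, whose transcripts cycle over the day, also differed. In the SMC gate 1 of 18 members was higher and 5 lower. Nr1d1 (REV-ERB alpha), a repressor within the clock, had 60.7 CPM in WT AngII and 22.05 in WT saline, a log2 ratio of 1.46 (1.37 to 1.56), while KO AngII had 86.4 and KO saline 118 CPM. In the fibroblast gate Nr1d1 had 28.3 against 5.59 CPM, with 45.5 and 84.9 CPM in the KO libraries. Per2 was lower in the SMC gate at 14.3 against 44.99 CPM, and the output factors Hlf and Tef at 6.43 against 20.9 and 18.5 against 50.9 CPM. The sources used here do not give the hour of tissue collection, and its part in these values was not tested. Of the heat shock list 2 members were lower in each gate, of 18 eligible in SMCs, 17 in fibroblasts and 15 in phagocytes, and 0 were higher. These were Hspa1a and Hspa1b, induced by heat and other stress. Hspa1a had 166 against 491 CPM in SMCs, 351 against 1723 in fibroblasts and 582 against 3105 in phagocytes.

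Chaperones of the ER lumen were higher in SMCs and fibroblasts of the treated aorta. In the SMC gate 10 of 19 eligible members were higher and 0 lower (median log2 ratio 1.02). In the fibroblast gate 10 of 17 were higher and 0 lower (median 1.33), and in the phagocyte gate 1 of 16 was higher (median 0.22). Many of these genes carry the ER stress response element in their promoters, searched as the letters CCAAT, 9 bases of any kind, then CCACG. In windows from 250 bases before to 50 bases after the RefSeq start sites (GRCm38.p6), searched on both strands, it was found for 9 of 17 list genes with a window (52.9%) and for 37 of 27025 genes in all (0.137%). Of the list genes higher in the SMC gate 6 of 8 with a window held it, and of those eligible but not called 3 of 9. In the fibroblast gate the element was held by 5 of 9 genes called higher and 3 of 7 not called. A match is a run of letters and not a shown binding site. Hspa5, Pdia6, Creld2 and Calr, all higher in SMCs, are shown with 170 bases of their promoter, 5′ to 3′ on the gene's strand; capitals mark the element, which in Creld2 and Calr reads on the opposite strand. They lie at chr2:34771920-34772089 (Hspa5, plus strand), chr12:17266419-17266588 (Pdia6, plus), chr15:88819476-88819645 (Creld2, plus) and chr8:84846932-84847101 (Calr, minus).
Hspa5: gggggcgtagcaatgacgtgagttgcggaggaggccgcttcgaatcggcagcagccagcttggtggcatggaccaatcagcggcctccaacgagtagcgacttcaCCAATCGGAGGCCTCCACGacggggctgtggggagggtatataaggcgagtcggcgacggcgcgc
Pdia6: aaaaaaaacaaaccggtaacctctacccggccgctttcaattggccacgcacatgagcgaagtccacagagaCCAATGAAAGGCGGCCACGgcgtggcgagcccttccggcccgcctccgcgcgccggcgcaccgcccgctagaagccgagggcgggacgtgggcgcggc
Creld2: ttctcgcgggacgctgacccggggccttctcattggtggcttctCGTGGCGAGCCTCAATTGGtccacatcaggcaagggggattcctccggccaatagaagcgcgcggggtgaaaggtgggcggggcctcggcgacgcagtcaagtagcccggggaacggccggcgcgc
Calr: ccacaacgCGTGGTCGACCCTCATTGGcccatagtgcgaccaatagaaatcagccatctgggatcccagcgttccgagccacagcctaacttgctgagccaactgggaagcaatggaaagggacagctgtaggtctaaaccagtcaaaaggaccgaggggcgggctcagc

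The genes with these promoters had large counts on each side. Hspa5 (BiP), the main ER chaperone of the HSP70 family, had 472 CPM in WT AngII and 187 in WT saline in the SMC gate, a log2 ratio of 1.33 (1.30 to 1.36), and 818 against 203 CPM in the fibroblast gate, a ratio of 2.01 (1.91 to 2.11). In the KO pair its levels were 422 against 279 CPM in the SMC gate and 825 against 362 in the fibroblast gate, so the AngII libraries of both genotypes were close and WT saline was lowest. Sdf2l1, a partner of BiP, had 43.3 against 3.96 CPM in SMCs and 97.1 against 18.2 in fibroblasts. Creld2 and Manf, small secreted ER proteins, had ratios of 1.78 and 1.69 in SMCs and 2.32 and 2.27 in fibroblasts. Calreticulin (Calr) had 580 against 226 CPM in SMCs and 1014 against 239 in fibroblasts, with KO ratios of 0.41 and 0.52. The disulfide isomerase Pdia6 had 173 against 62.9 CPM in SMCs and 402 against 110 in fibroblasts, with KO ratios of 0.76 and 0.16. In the KO pair 2 of 18 members were higher in SMCs and 3 of 17 in fibroblasts; whether the 2 pairs differ was not tested.

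Collagen chains and the enzymes that process them were higher in the same gates. Of the collagen list 9 of 14 members were higher in SMCs and 15 of 19 in fibroblasts, and 0 were lower (medians 1.27 and 1.77). In fibroblasts Col3a1 had 14757 against 2640 CPM, Col1a1 8169 against 2026 and Col8a1, a chain of the vessel's subendothelial matrix, 547 against 53.7. Col11a1, a chain of cartilage and of activated fibroblasts, had 63.4 against 2.43 CPM, with a log2 ratio of 4.70, and 7.01 in the KO pair. In SMCs Col8a1 had 60.1 against 4.70 CPM and Col15a1, a basement membrane chain, 573 against 118. Col15a1 was held by 75.0% of thinned SMC-gate cells in WT AngII and 25.0% in WT saline. Of the secretory and collagen-processing list, 8 of 24 members were higher in SMCs and 16 of 25 in fibroblasts, with 0 lower. Fibroblast markers in the SMC gate summed to 6737 CPM in WT AngII and 2879 in WT saline, and Lum to 69.97 and 21.0 CPM. In SMC-gate cells restricted in the same way as for Lcn2, to under 5 UMIs of the other gates' genes, the medians were 1.201 for collagens, 0.92 for injury matrix and 0.90 for the secretory list. Serpinh1 (HSP47), the collagen chaperone, had 2891 against 553 CPM in fibroblasts and 880 against 388 in SMCs. The prolyl hydroxylase P4ha3 had 37.4 against 1.46 CPM in fibroblasts, and the lysyl hydroxylase Plod2 222 against 58.3.

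Most called genes of the injury matrix list were higher as well. In SMCs 12 of 24 members of the list were higher and 1 lower. Thrombospondin 1 (Thbs1) had 166 against 29.4 CPM, tenascin C (Tnc) 103 against 23.3, fibronectin (Fn1) 2488 against 661 and elastin (Eln) 6004 against 2113. Cyr61, a target of mechanical signalling, was lower at 574 against 1306 CPM. In fibroblasts 14 of 27 were higher and 1 lower (median 1.47). Periostin (Postn) had 1352 against 78.0 CPM in fibroblasts, held by 67.4% of thinned cells against 15.4%, and its SMC levels were 2495 against 713. Tgfbi was the lower member in fibroblasts, at 136 against 365 CPM. Among proteases and inhibitors, Timp1 had 173 against 18.1 CPM in SMCs and 1151 against 138 in fibroblasts, while Timp4 was lower in both, at 4.41 against 41.8 and 1.12 against 16.5.

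Within the SMC gate most contractile genes were within 2-fold of their control levels. The gate itself asks for a contractile gene, Myh11, so cells that had lost such RNA could fall outside it. The 29 genes of the list in the data summed to 60492 CPM in WT AngII and 73118 CPM in WT saline. Of 28 eligible members of the actin contractile list 0 were higher and 2 were lower (median −0.41 against −0.13 for all genes). Acta2, smooth muscle actin, had 18116 against 19534 CPM, a log2 ratio of −0.11, a distance from 0 as large as the 0.11 by which median-of-ratios scaling moved every gene of this gate. Synpo2, an actin-linking protein, was lower at 289 against 599 CPM. Of 23 members of the nitric oxide and cyclic GMP list, Gucy1a3, a subunit of the nitric oxide receptor, was the one lower, at 88.8 against 207 CPM. In the list of growth factors and receptors 7 of 21 were higher, among them Pdgfb at 9.83 against 1.83 and Hbegf at 202 against 90.8 CPM, and the neurotrophin Ntf3 was lower at 37.8 against 108. Of 16 feedback genes of AngII signalling 4 were higher and 2 lower, with a median of −0.10. Higher members were Rgs4 (150 against 54.7 CPM), Rcan1 (84.7 against 32.4) and Ptgs2 (71.1 against 31.1), and the lower ones Rgs2 (17.0 against 41.3) and Edn1 (4.76 against 15.4).

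Metabolic genes differed by gate. Of the cholesterol synthesis list 9 of 23 members were higher in SMCs and 0 lower (median 0.72), among them Fdps, which makes farnesyl pyrophosphate, at 68.6 against 26.7 CPM. The sterol regulatory element, searched as TCAC, any base, then CCAC on both strands, was found for 1 of 16 list genes (6.25%). It was found for 388 of 27025 genes in all (1.44%). Of the list genes higher in SMCs 0 of 5 with a promoter window held it. In fibroblasts 0 of 9 eligible members of the cholesterol list were higher or lower (median 0.34). A gene needed 12.15 CPM to be eligible there, against 0.944 CPM in SMCs. In the fibroblast gate of the KO pair 7 of 14 members were higher and 0 lower. Of the fatty acid list 11 of 35 members were lower and 2 higher in SMCs, and 9 of 28 lower and 1 higher in fibroblasts. Fabp4, a fatty acid binding protein of adipocytes and some SMCs, had 91.5 against 523 CPM in SMCs. The other adipocyte markers were near 0 in these cells, and at most 1 cell of the gate held 3 or more of the 6. In phagocytes 7 of 16 glycolysis and hypoxia genes were higher and 0 lower. Among them were Vegfa, at 242 UMIs against 1 (log2 ratio 5.84, 3.35 to 11.15), and lactate dehydrogenase Ldha, at 390 against 156 CPM. Nuclear respiratory chain genes had 0 of 27, 0 of 25 and 0 of 24 members higher or lower in the 3 gates.

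Cycling cells were more frequent in every gate of the treated library. A cell was counted as cycling where it held 2 or more of 5 cell cycle markers after thinning to 3000 UMIs. The fibroblast gate had 68 of 1698 such cells (4.005%, 3.12 to 5.05) in WT AngII and 0 of 667 in WT saline, which allows a share of up to 0.450% when 3 cells are taken as the limit of a count of 0. The phagocyte gate had 74 of 705 (10.5%, 8.33 to 12.998) against 11 of 257 (4.28%, 2.16 to 7.53), and the SMC gate 60 of 5906 (1.02%, 0.776 to 1.31) against 4 of 7336 (0.0545%, 0.0149 to 0.140). Without thinning the shares were 7.07% against 0%, 16.2% against 5.61% and 2.05% against 0.0926%. The proliferation list had 11 of 16 members higher in fibroblasts (median 4.18), 10 of 16 in SMCs (median 1.501) and 9 of 14 in phagocytes (median 1.14), with 0 lower. When gates were applied to thinned cells the fibroblast median was 2.76 and the SMC median −0.091.

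Fibroblasts of the treated aorta carried more chemokine and fewer complement transcripts. Of 11 eligible chemokine genes 7 were higher and 1 lower (median 2.69). The median was 1.07 at a minimum of 200 UMIs. The monocyte attractants Ccl2 and Ccl7 had 637 against 75.8 and 640 against 98.9 CPM, and the neutrophil attractant Cxcl1 673 against 104. Ccl11, an eosinophil attractant, was lower at 21.6 against 139 CPM. Of 16 complement and coagulation genes 6 were lower and 0 higher (median −0.59, and −0.26 when the gate was applied to thinned cells), among them C3 at 168 against 446 CPM and tissue factor (F3) at 75.0 against 293. Xenobiotic and redox enzymes were lower for 8 of 27 members and higher for 1, with the flavin mono-oxygenase Fmo2 at 121 against 1041 CPM and Gstm1 at 154 against 1202.

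Interferon-stimulated genes were higher in fibroblasts for 7 of 33 members and lower for 1 (median 0.36). Isg15, a ubiquitin-like protein, had 139 against 34.8 CPM, a log2 ratio of 2.002, and the antiviral membrane protein Bst2 400 against 150, a ratio of 1.42. In the KO pair the same genes had ratios of −2.01 and −1.27, and 0 of 9 eligible members were higher and 6 lower. In the SMC gate 0 of 15 members were higher or lower. The interferon-stimulated response element, searched as the letters GAAA, 2 bases of any kind, then GAAA on both strands, was found in the promoter windows of 18 of 28 list genes (64.3%) and of 1079 of 27025 genes (3.99%). In the fibroblast gate it was held by 3 of 4 list genes called higher and 13 of 20 not called. Isg15 is shown because its promoter held 3 overlapping matches, in capitals, and its ratio took opposite signs in the 2 pairs; the stretch is chr4:156200819-156200988 (GRCm38.p6, minus strand).
Isg15: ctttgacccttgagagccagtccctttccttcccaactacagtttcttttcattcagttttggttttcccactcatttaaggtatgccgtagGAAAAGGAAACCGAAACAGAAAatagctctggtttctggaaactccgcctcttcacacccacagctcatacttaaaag

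The lists of resident and of recruited macrophage genes had medians of opposite sign. Of 24 genes of resident aortic macrophages 14 were lower and 1 higher (median −1.15). The haemoglobin scavenger receptor Cd163 had 160 against 803 CPM, and the lectin Mgl2 72.6 against 326. Vsig4, a complement receptor, was the one higher, at 157 against 78.0 CPM. Of 23 genes of monocytes and lipid-associated macrophages 12 were higher and 2 lower (median 1.09, and 0.67 at a minimum of 200 UMIs). The monocyte chemokine receptor Ccr2 had 122 against 7.86 CPM, held by 21.8% of thinned cells against 1.95%; galectin-3 (Lgals3) had 1301 against 332 CPM and Trem2, a lipid-sensing receptor, 617 against 290. Cd36 and Fabp4 were the lower members, at 104 against 407 and 20.1 against 96.3 CPM. Fibroblast markers in the gate summed to 1408 CPM in WT AngII and 676 in WT saline, and their part in the higher matrix genes of this gate was not tested.

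MHC class II genes, which present antigen to T cells, were higher in phagocytes for 4 of 6 eligible members and lower for 0 (median 1.11). H2-Ab1 had 1634 against 653 CPM, a log2 ratio of 1.32, and H2-Aa 1556 against 725. In the KO pair the ratios of these genes were −1.44 and −1.39, and 6 of 6 members were lower. Of 15 chemokine genes 5 were higher and 3 lower; Ccl8 had 2785 against 280 CPM, and Ccl6 and Ccl9 were lower, at 1451 against 3765 and 924 against 2312. The KO phagocyte ratios rest on 83 control cells.

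**Figure D4:**
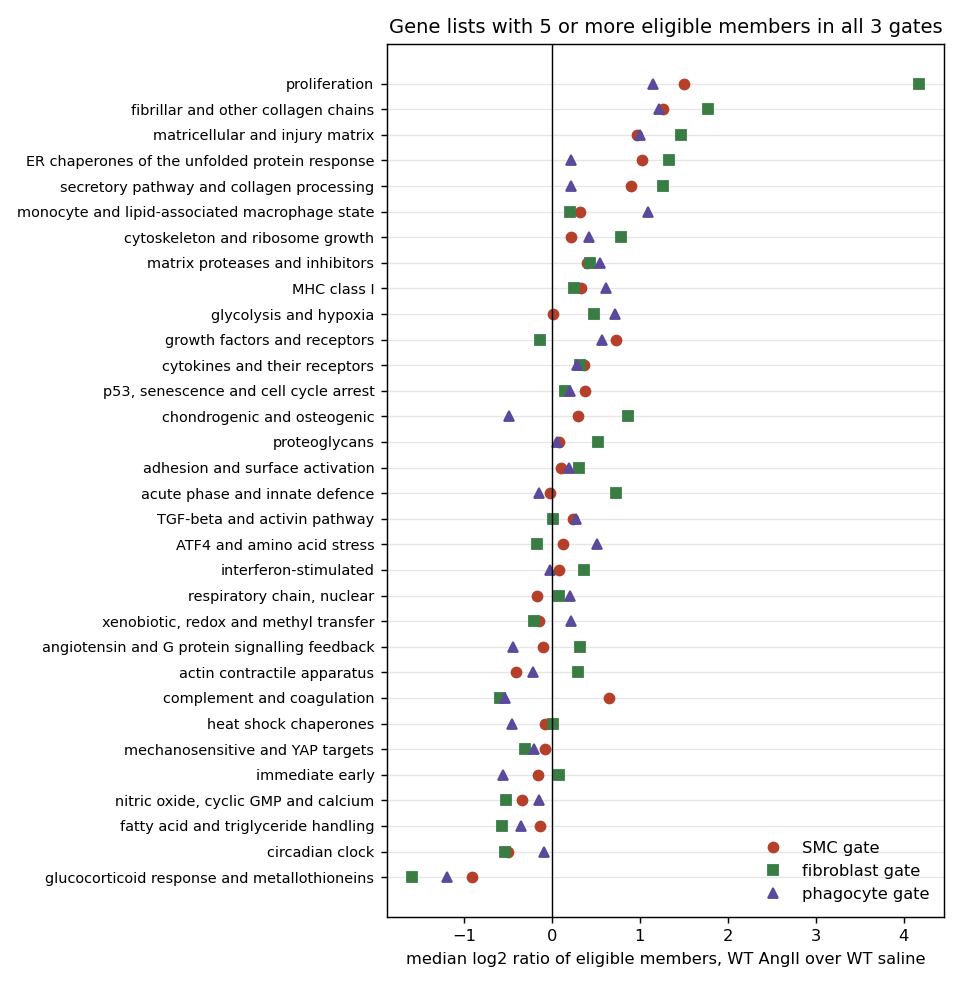
Median log2 ratio of CPM, WT AngII over WT saline (horizontal axis), of the eligible members of each gene list with 5 or more in all 3 gates, 1 point a gate. The glucocorticoid and metallothionein list lies lowest (−1.59 in fibroblasts), and the proliferation, collagen and matrix lists lie highest; ER chaperones are at 1.02 and 1.33 in SMCs and fibroblasts but 0.22 in phagocytes.

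Over all cells together, 1261 of 12828 eligible genes (9.83%) were higher and 708 (5.52%) lower in WT AngII. These ratios also carry the change in cell makeup, and fewer cells of a type cannot be told apart here from less RNA per cell. When the treated library was given the gate makeup of the control, 813 genes were higher. Cthrc1 then had a log2 ratio of 6.00 in place of 7.17, and Spp1 5.90 in place of 6.26. Saa3, Arg1 and Cxcl3 had 3416, 341 and 335 UMIs against 0. Among the lower genes, Mrgprg had 0 UMIs against 333 and Gnrhr 0 against 65. Ccl21a, a chemokine of lymphatic vessels, had 0 UMIs against 244, of which 187 were in 1 cell. All 6 genes named as higher over all cells were at least 2-fold higher in the KO pair. Of the 6 named as lower, 3 were at least 2-fold lower there and 1 at least 2-fold higher.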

How the data were processed

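Per the submitters' processing notes, reads were processed with Cell Ranger on mm10. The authors deposited 1 table of raw UMI counts per library, genes by cells, with 17524 genes; the sources used here do not give their filters on cells. Counts were summed over all cells and within the 3 gates and divided by the total, and log2 ratios were given exact conditional 95% intervals (Python 3.11.15, numpy 2.4.6, scipy 1.17.1, pandas 2.3.3). TMM and median-of-ratios factors were computed with edgeR 4.0.16 in R 4.3.3. The ratio code was tested on simulated data. Shares of cells were computed after thinning each cell to 3000 UMIs without replacement. With 1 library a group no test was made, doublets were not called, and depth (60064038 and 90581097 UMIs) sets the width of the intervals. Cells with more UMIs weigh more in the sums. Named genes were the 10 higher and 10 lower eligible genes per gate (6 and 6 for phagocytes and for all cells) whose intervals ended farthest from 0, without mitochondrial, ribosomal, haemoglobin, gate and predicted genes, and up to 4 called members a list in each direction. Acta2, C3, Ccl7, Cxcl1, Eln, Hspa5, Pdia6, Tmem173 and Trem2 fall partly or wholly outside that rule and were chosen after their values were seen. The comparison, the 38 pathway lists, the 15 marker lists and the rules were chosen with earlier results of these data known. Gene positions are from the GENCODE annotation of GRCm38. Alternatives covered scaling, minimum counts, filters on cells, gate definitions, cell weights and cell makeup. Some genes that met the naming rule are not reported here.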

Additional observations from a re-analysis of the deposited data

Results flagged for a closer look

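Named genes and, within the gates, list members called in the wild-type pair were searched for opposite ratios in the KO pair. Other genes were not searched. In 9 of the searched genes the pairs differed by 2-fold or more in opposite directions, with enough counts in both. The difference between pairs was not tested, since each has 1 library a side. In phagocytes these were the MHC class II genes H2-Aa (log2 ratio 1.10 in the wild-type and −1.39 in the KO pair), H2-Ab1 (1.32 and −1.44), H2-DMb1 (1.33 and −1.45) and H2-Eb1 (1.12 and −1.59). In fibroblasts they were the interferon-stimulated genes Isg15 (2.002 and −2.01) and Bst2 (1.42 and −1.27) and the Wnt inhibitor Wif1 (2.24 and −2.57). In SMCs the mitochondrial folate enzyme Mthfd2 had −2.47 and 1.33. Over all cells Ccl21a had −6.94 and 9.98, with 244 UMIs in WT saline, 3732 in KO AngII and 0 in the other two libraries.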

How the results depend on the processing

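Counts of genes at least 2-fold apart moved mainly with the minimum count. At a minimum of 200 UMIs they were 335 higher and 375 lower in the SMC gate, 228 and 235 in the fibroblast gate, 62 and 66 in the phagocyte gate and 792 and 463 over all cells; fewer genes were then eligible. At a minimum of 20 UMIs the phagocyte counts were 362 and 408. With the cell makeup of saline 813 genes were higher over all cells. Of the list medians by gate that were 0.5 or more from 0, 28 were higher and 11 lower. A list counts once for each gate. The lower count was 4 with TMM, 4 with median-of-ratios scaling, 7 at a minimum of 20 UMIs and 7 with cells weighted equally. Both scalings moved every ratio of a gate up, by 0.10 to 0.17. Lower medians close to the limit, from −0.50 (SMC clock genes) to −0.59 (fibroblast complement), then no longer counted. Those left were the glucocorticoid list in each gate and the resident macrophage list in phagocytes. The cause of the changes at the other settings was not tested.

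Doubling the gate thresholds gave SMC and fibroblast shares of 62.9% and 18.9% in WT AngII and 73.2% and 8.95% in WT saline. Cells of exactly 1 gate gave SMC and phagocyte shares of 65.3% and 7.23%, and 78.5% and 2.60%. Thinned cells gave SMC and fibroblast shares of 47.6% and 18.2%, and 77.8% and 7.88%. List medians changed sign in phagocytes of exactly 1 gate for ATF4 and amino acid stress (−0.092) and growth factors (−0.24), and for SMC proliferation with thinned gates (−0.091). Medians that moved by more than 1.5 times without changing sign were those of fibroblast chemokines (1.87 with thinned gates, 1.07 at 200 UMIs), fibroblast proliferation (2.86 without the 5% of cells with the most UMIs), SMC proliferation (0.82 with doubled thresholds) and phagocyte injury matrix (2.90 in cells of 1 gate), among others. The other 36 of 38 and 37 of 38 list medians by gate kept their sign there, as did every such median under the other settings. All 64 named genes stayed at least 2-fold apart under both scalings, and 60 of 61 without the 5% of cells with the most UMIs.

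Leaving out a replicate was not done: each group has 1 library. No paired analysis was possible because the groups share no replicate pairs: each holds 1 pooled library.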
